A study of Homo sapiens with 2 samples.

Results

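Intergenic noncoding RNAs that carry a LINC number were examined in Ca9-22 cells, an oral squamous cell carcinoma (OSCC) line, with and without ectopic expression of the long noncoding RNA DLEU1. The members were all genes whose name on the array was LINC followed by digits only and that had at least 1 probe well above background on at least 1 of the 2 arrays. Probes on chromosome 13 from 46000000 to 55000000 (hg19), the region that holds DLEU1, were left out. The array held 827 such names outside that region, and 342 of them (41.4%) were detected and form the set described here, out of 43317 gene names of all kinds. By the same measure 13912 of 18588 protein-coding names (74.8%) and 1864 of 3619 other RefSeq noncoding names (51.5%) were detected.

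The study compared 2 groups with 1 array each. Ca9-22 cells had been infected with a lentiviral vector carrying DLEU1 cDNA (DLEU1 vector) or with a control vector, and both cultures were selected with blasticidin for 2 weeks. Cy3-labelled total RNA was hybridised to 1-colour Agilent arrays of 60-base probes on the same slide, scanned together. The vector expresses DLEU1 from cDNA, not from its own locus. With 1 array per group no test, p-value or replicate error could be computed, and every difference below describes these 2 cultures only. Since the members were chosen by their signal on the same arrays, their levels and differences are given as a description.

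Long intergenic noncoding RNAs are transcripts that lie between protein-coding genes and have no long open reading frame. Most are transcribed by RNA polymerase II, many are spliced, and as a class they are less abundant, more restricted to particular cell types and more often kept in the nucleus than messenger RNAs. A LINC number is a placeholder symbol given to such a locus before anything is known of its function. Several have since been studied in squamous carcinoma, and others have been renamed as antisense or divergent transcripts, as microRNA host genes or as genes for small proteins.

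Levels below are log2 processed signal relative to the 75th percentile of the array, and differences are DLEU1 vector minus control vector, so that a difference of 1 is 2-fold. The DLEU1 probe for NR_002605 read 3.17 under the control vector and 5.91 under the DLEU1 vector, a difference of 2.74. The other 2 DLEU1 probes, of transcript NR_109974, gave 0.54 and 0.85, and the mean over the 3 was 1.38. All 6 squamous epithelial markers examined were detected on both arrays, and 5 of the 6 were higher with the DLEU1 vector. These were KRT5 (2.10), KRT14 (2.85), KRT6A (2.91), CDH1 (1.04) and TP63 (0.96), while EPCAM differed by -0.78. Their summed linear level was 306 under the control vector and 1279 under the DLEU1 vector. The summed level of 6 fibroblast markers was 1.55 and 22.4, a rise carried by COL1A1 (0.47 and 4.47) while PDGFRB differed by -0.33. LUM was detected with the DLEU1 vector only (-5.70 and -2.79). COL1A2, COL3A1 and DCN were not well above background on either array. The summed level of 4 endothelial markers was 0.460 and 2.76, a rise carried by VWF (3.70) while CDH5 differed by -0.59. PECAM1 and KDR were not well above background. The leukocyte markers summed to 1.25 and 1.05, with CD3E not well above background. Whether these markers bear on any LINC RNA was not tested. A strip of the DLEU1 vector array also read low. Among probes without a LINC name that were detected on the control vector array, 26.8% in the strip were at least 2-fold lower, against 11.9% outside it. The strip was located by this share, so the values describe it and test nothing. It held the value of 9 members detected on both arrays, of which LINC00294 was more than 2-fold higher and LINC01461 more than 2-fold lower. The CDH1 probe also lay in it.

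Of the 342 members, 280 were detected on both arrays, 36 with the DLEU1 vector only and 25 with the control vector only. The remaining member, LINC01526, had a probe detected on each array but none on both. Most members were dim. Among the 280 detected on both arrays, the level ran from -3.999 to 7.38 under the control vector (median -1.08) and from -3.86 to 7.72 under the DLEU1 vector (median -0.87). The SD between replicated spots of a probe was 0.0800 for the log2 difference, and the SD between different probes of the same member was 0.56 over 84 members with at least 2 probes. A difference of 1 was therefore well above the spot error but less than 2 SD of the difference between probes of 1 RNA. Neither value contains the variation between cultures.

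More LINC RNAs stood higher than lower with the DLEU1 vector. At least 2-fold higher were 37 of the 280 members (13.2%), where 9.18% of all genes detected on both arrays passed that fold. At least 2-fold lower were 14 members (5.00%), where 9.79% of all genes did. Among protein-coding genes the shares were 9.06% higher and 11.6% lower, and among other RefSeq noncoding genes 11.6% higher and 7.59% lower. The median difference was 0.15 for the LINC members, 0.04 for other noncoding genes and -0.12 for protein-coding genes, and 168 of the 280 members (60%) lay above 0. With all arrays set to equal spike-in signal the balance was 17 higher and 38 lower with a median of -0.31. These were 6.07% and 13.6% of the members, where 4.60% and 23.9% of all genes passed. With normexp background correction the balance was 19 higher and 3 lower (6.79% and 1.07%), where 5.54% and 6.98% of all genes passed. The members' median lay 0.22 above the median of all genes, a distance that a shift of a whole array cannot change. It was 0.17 after quantile, 0.18 after loess and 0.14 after normexp processing.

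**Figure D1:**
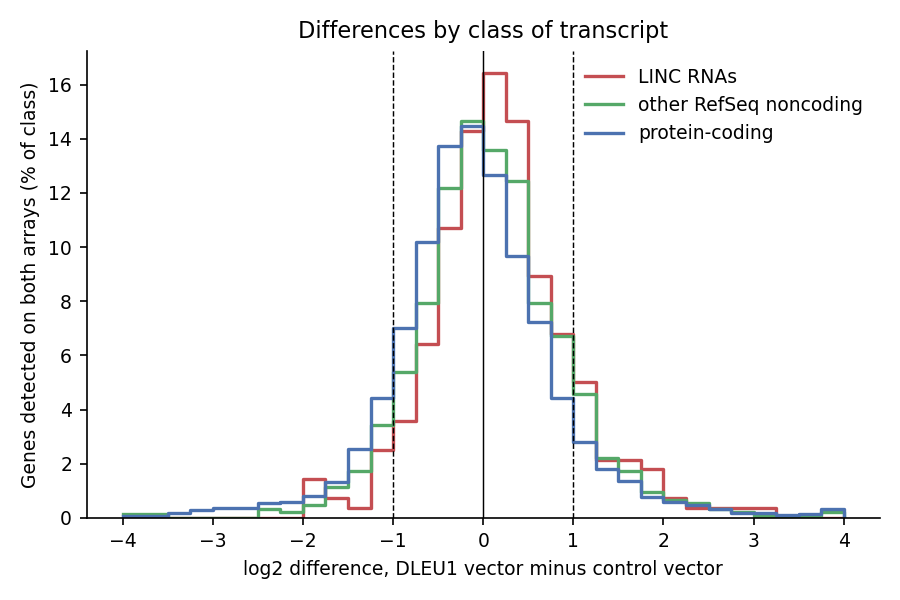
Distribution of the log2 difference (DLEU1 vector minus control vector, bins of the x axis) for genes detected on both arrays, as percent of each class: 280 LINC RNAs, 1488 other RefSeq noncoding genes and 12942 protein-coding genes. Dashed lines mark 2-fold and the outermost bins also hold the values beyond the axis. The LINC curve lies to the right of the protein-coding curve, with medians of 0.15 and -0.12.

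The distance from all genes was wider among the brighter members. The members were divided at their own median level of -1.10. Of the 140 dimmer members 13.6% passed 2-fold upward and 5.71% downward, where all genes in that range gave 11.0% and 6.87%. Of the 140 brighter members 12.9% were higher and 4.29% lower, where all genes in that range gave 8.46% and 10.9%.

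**Figure D2:**
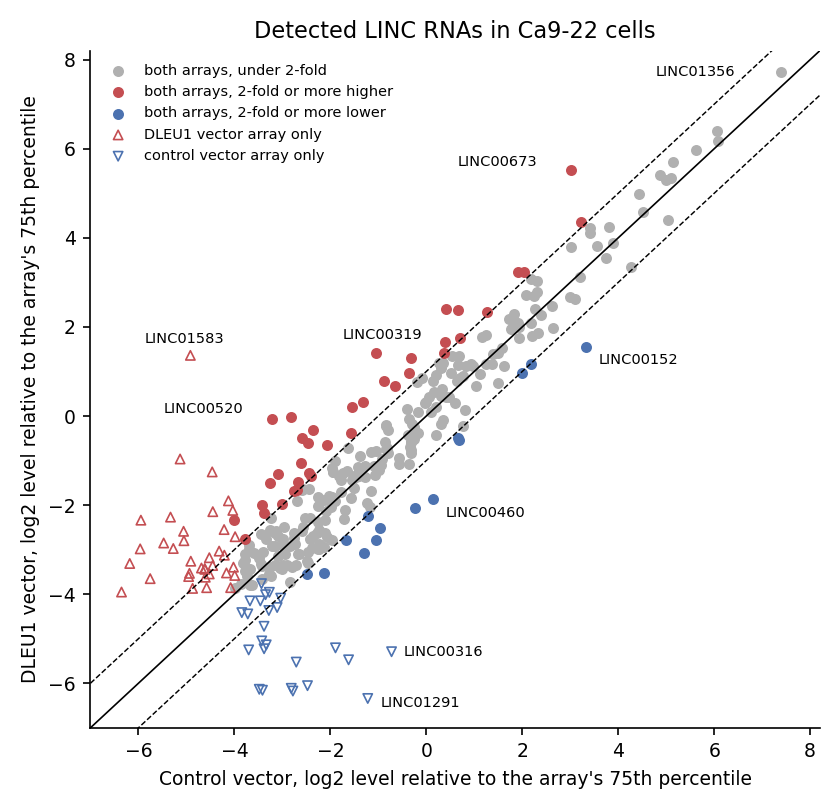
Level of each LINC RNA with the control vector (x axis) and the DLEU1 vector (y axis), both as log2 level relative to the 75th percentile of the array, 1 array per group. Filled points were detected on both arrays, open triangles on 1 array only, the solid line is equality and dashed lines are 2-fold. Most of the 280 filled points lie between the dashed lines, with 37 above and 14 below.

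The largest difference among members detected on both arrays was that of LINC00520, which has been described in several carcinomas. It read -3.23 under the control vector and -0.08 under the DLEU1 vector, a difference of 3.15. Its other probe detected on both arrays gave 2.18, so that both probes passed 2-fold. LINC00548 followed, at -2.81 and -0.02 (2.79) from its single probe. Both RNAs were among the dim members with the control vector.

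LINC00673, also known as SLNCR1 and studied in melanoma and other tumours, was the brightest of the RNAs that were higher. It read 3.01 under the control vector and 5.52 under the DLEU1 vector, a difference of 2.52. Its 4 probes were all detected on both arrays and gave 2.52, 2.71, 2.21 and 0.78, the lowest from the probe nearest the 5′ end of the locus. These 4 probes are shown because all 4 read higher, with a mean difference of 2.05. They run from the 3′ to the 5′ end of the transcript (minus strand of chromosome 17, hg19), at chr17:70399521-70399580, chr17:70400405-70400464, chr17:70424377-70424436 and chr17:70427305-70427364 in turn.
LINC00673 probe A_19_P00319646: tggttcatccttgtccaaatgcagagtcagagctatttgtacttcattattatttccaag
LINC00673 probe A_21_P0009360: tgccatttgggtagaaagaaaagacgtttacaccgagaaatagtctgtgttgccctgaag
LINC00673 probe A_22_P00014796: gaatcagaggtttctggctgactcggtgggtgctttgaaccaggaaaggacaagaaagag
LINC00673 probe A_22_P00014799: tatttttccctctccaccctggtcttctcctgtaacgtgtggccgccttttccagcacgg

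LINC00319 and LINC00313 lie 18.2 kb apart on chromosome 21 and were both among the 5 largest increases. LINC00319 read -1.05 and 1.41, a difference of 2.46, and LINC00313 read -2.58 and -0.49, a difference of 2.09. A second LINC00313 probe was detected with the DLEU1 vector only and read -5.01 and -2.18. The nearest detected coding gene to both was SIK1, a salt-inducible kinase, which read 1.72 and 4.20 (2.48). These 3 neighbouring transcripts were higher by more than 4-fold. LINC00322, another member whose nearest coding gene was SIK1, read -0.98 and -1.21 (-0.23).

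The other RNAs among the 10 largest increases were LINC00648, LINC01573, LINC00408, LINC01556 and LINC00894. LINC00648 read -2.37 and -0.30 (2.06), and its second probe, detected with the DLEU1 vector only, went the same way. LINC01573, now named NALT1 and placed beside NOTCH1, read 0.40 and 2.40 (1.99), and its other probe detected on both arrays gave 1.04. NOTCH1 itself differed by -0.18. LINC00408 read -2.47 and -0.61 (1.86), and LINC01556 read -3.10 and -1.31 (1.79). LINC00894, now EOLA2-DT, a divergent transcript of EOLA2, read -1.55 and 0.21 (1.76). Of its 6 detected probes 5 gave 1.46 to 2.18, and 1 gave -0.28. Beyond these 10, another 27 members were at least 2-fold higher, with differences of 1.03 to 1.75.

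**Figure D3:**
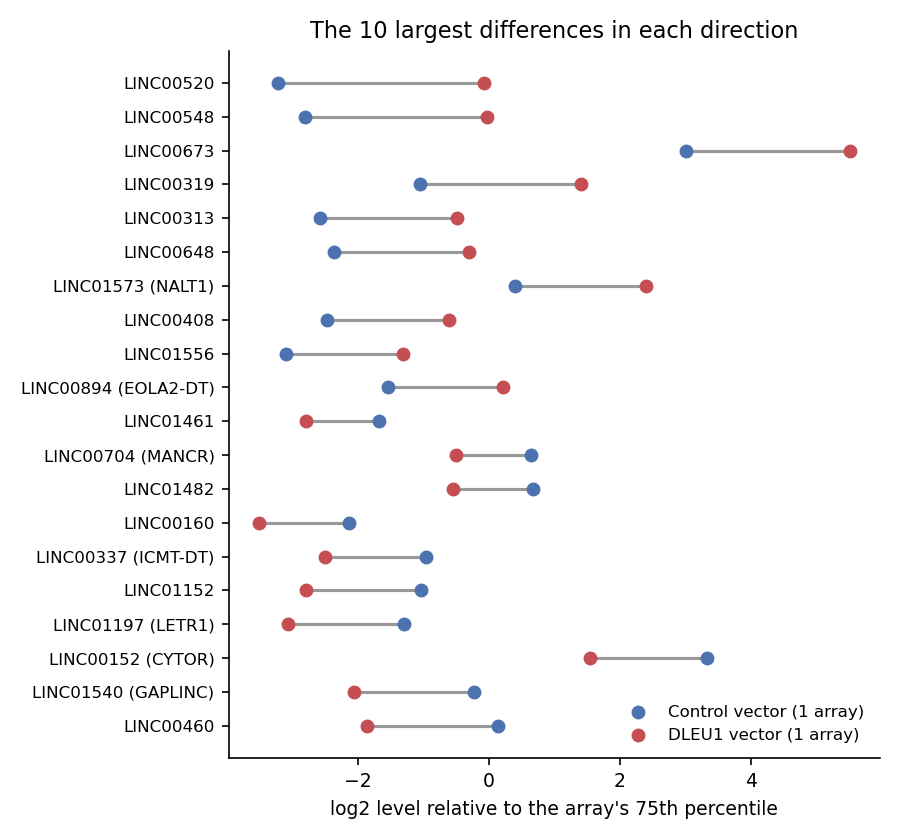
The 10 members with the largest positive and the 10 with the largest negative difference among those detected on both arrays, each as its level with the control vector (blue) and the DLEU1 vector (red) on 1 array each (x axis, log2 level relative to the 75th percentile). Current symbols stand in parentheses. Differences run from 3.15 for LINC00520 to -1.997 for LINC00460.

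Among the RNAs that were lower, LINC00460 had the largest difference. This transcript of the distal long arm of chromosome 13 has been described in many carcinomas, squamous ones included. It read 0.14 under the control vector and -1.86 under the DLEU1 vector, a difference of -1.997. Its 3 probes gave -1.88, -1.91 and -1.997, a range far smaller than the SD between probes of other members. LINC01540, now GAPLINC and first described in gastric adenocarcinoma, read -0.23 and -2.06 (-1.83). Another probe, which overlaps that one for most of its length, gave -1.64. The remaining probe, detected on the control vector array only, was also lower with the DLEU1 vector. LINC00704, now MANCR, a noncoding RNA associated with mitosis, read 0.65 and -0.50 (-1.15), and its other 2 probes gave -1.54 and -1.62. For these 3 RNAs every probe detected on both arrays was at least 2-fold lower.

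LINC00152, now CYTOR and named as a regulator of the cytoskeleton, was the brightest of the RNAs that were lower, at 3.34 and 1.55 (-1.79). A near-identical copy of CYTOR lies elsewhere on chromosome 2 and is held on the array as MIR4435-1HG. The 3 probes of MIR4435-1HG gave -1.73, -2.50 and -2.61, the last of them in the strip that read low. Signal from the copies cannot be told apart where their sequences match, and both names read lower.

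The remaining RNAs of the 10 largest decreases rested on fewer probes. LINC01197, now LETR1, a regulator described in lymphatic endothelium, read -1.30 and -3.08 (-1.78), while its other probe gave -0.27. LINC01152 read -1.04 and -2.79 (-1.75). LINC00337, now ICMT-DT, a divergent transcript of ICMT, read -0.96 and -2.51 (-1.55), and the ICMT messenger probe detected on both arrays differed by -0.78. LINC00160 read -2.14 and -3.52 (-1.38), LINC01482 read 0.68 and -0.54 (-1.22), and LINC01461 read -1.68 and -2.79 (-1.11) from a probe in the strip that read low. The last 4 members at least 2-fold lower were LINC00471, LINC00659, LINC00944 and LINC00941, between -1.06 and -1.02. The other 229 members detected on both arrays stayed under 2-fold, and 169 members lay within 1 SD between probes of 0.

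More members were detected with the DLEU1 vector only than with the control vector only. These were 36 (10.5% of the members, 5.46% of all genes detected on at least 1 array) and 25 (7.31%, 4.68% of all genes). For these RNAs only a bound on the fold can be given, taken against the higher of the lowest signal called well above background and the RNA's own signal on the other array. The bound reached 2-fold for 16 of the 36 and for 9 of the 25. The same share over all genes is not given here, so these counts describe the members alone. Under the looser positive and significant detection setting, 337 members were detected on both arrays. This left 1 member under the DLEU1 vector alone and 4 under the control vector alone. All members had been chosen by the stricter mark, so no order can be read from these few.

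The bounds stood widest for LINC01583, which was not well above background with the control vector (-4.92) and read 1.36 with the DLEU1 vector, at least 43.8-fold higher. LINC00640 was at least 8.74-fold higher (-5.13 and -0.96), LINC01179 at least 7.15-fold (-4.46 and -1.25), LINC00324 at least 4.56-fold (-4.12 and -1.90) and LINC00578 at least 3.85-fold (-4.45 and -2.15). Both detected probes of LINC00578 went the same way. With normexp background correction these log2 bounds were narrower, at 3.23 for LINC01583 in place of 5.45, and 1.39, 1.19, 0.79 and 0.74 for the other 4 in turn. LINC01583 rests on 1 probe on chromosome 15 (chr15:82387963-82388022, plus strand, hg19), shown since it carries the widest bound of any member. No run of 16 bases in it occurs on a probe of another gene name.
LINC01583 probe A_21_P0011334: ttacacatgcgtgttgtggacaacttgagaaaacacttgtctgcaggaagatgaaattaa

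In the other direction, LINC00316 read -0.72 with the control vector and was not well above background with the DLEU1 vector (-5.29), at least 9.99-fold lower. LINC01291 was at least 7.08-fold lower (-1.22 and -6.34) and LINC01293 at least 5.37-fold lower (-1.62 and -5.47). RefSeq now gives these 2 names to 1 gene, LINC01291, so their probes are 2 readings of 1 locus. LINC00599, now MIR124-1HG, the host of a microRNA of neurons, was at least 4.44-fold lower (-1.89 and -5.20), and LINC00880 at least 2.96-fold lower (-2.48 and -6.05). With normexp the log2 bounds of these 5 names were -1.37, -1.21, -0.77, -0.62 and -0.40 in turn, so that 3 of them no longer reached 2-fold. The RNAs nearest the detection limit were LINC01219 (-6.35 and -3.95) and LINC00162 (-4.87 and -3.87) just inside it, and LINC00652 (-3.95 and -3.74) and LINC01444 (-4.05 and -3.79) just outside, which were detected on neither array and are not members.

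The brightest probes among the members changed little. LINC01356 read 7.38 and 7.72 (0.34), LINC01122 read 6.07 and 6.39 (0.33), and LINC00493 read 6.07 and 6.18 (0.10). LINC00504 read 5.63 and 5.97 (0.34) and LINC00958 read 5.14 and 5.70 (0.55). None of these differences reached 1 SD between probes at this scaling. After loess LINC00958 stood at 0.81, LINC01356 at 0.62, LINC00504 at 0.60 and LINC01122 at 0.59, above that SD. LINC00493 is now SMIM26, a gene for a small membrane protein. The LINC01122 probe holds runs of 16 bases that occur on probes of 20 other gene names, mostly in a TG repeat, and its second probe differed by 0.43.

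LINC RNAs known from squamous epithelium or squamous carcinoma were found on both sides of 2-fold. Of 22 such RNAs listed, all on the array, 18 were detected, 15 of them on both arrays, with a median difference of 0.30. The median turned to -0.16 under spike-in scaling, where that of all genes was -0.53, and stood at 0.70 with the mean over probes. At least 2-fold higher were 4 (LINC00520, LINC00673, LINC00319 and LINC01133) and at least 2-fold lower were 3 (LINC00460, LINC00152 and LINC00941), where 9.18% and 9.79% of all genes and 13.2% and 5.00% of the LINC members passed. LINC00941 stayed under 2-fold with quantile, loess, normexp and detected-probe scaling (-0.91 to -0.99), and LINC01133 with normexp (0.52) and spike-in scaling (0.96). LINC01133 read -3.43 and -2.01 (1.42), with a second probe detected with the DLEU1 vector only. LINC01116 read 2.31 and 3.03 (0.72), and its 5 probes agreed closely, from 0.61 to 0.76. A pair of these probes overlaps for most of its length, so the 5 are not all separate readings. LINC00346, now PRECSIT and known as a p53-regulated activator of STAT3, read 0.83 and 1.12 (0.30).

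The list's other members were either under 2-fold, detected on 1 array only or not detected. LINC01315 read 2.32 and 1.87 (-0.45). LINC01296, now annotated as the pseudogene DUXAP9, read 1.13 and 0.93 (-0.19), with its other probes at 0.19 and 0.36. LINC00668 read 2.26 and 2.41 (0.15) from a probe in the strip that read low, and its other probe gave -0.79, so that no direction can be given. LINC00511 was not well above background with the control vector and at least 3.77-fold higher with the DLEU1 vector (-4.03 and -2.12). LINC00162, now PICSAR, a p38-inhibited RNA of cutaneous squamous carcinoma, had the narrow bound of at least 1.17-fold higher. LINC00707 was detected with the control vector only, at least 1.29-fold lower. LINC00473, LINC00261, LINC00305 and LINC00052 were not well above background on either array.

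Probes of 1 LINC RNA did not always give the same value, and for several the choice of probe set the result. Of the 84 members with at least 2 probes detected on both arrays, 52 had all probes on the same side of 0. No member (0 of 84) had probes past 2-fold in opposite directions. The range over the probes of a member had a median of 0.58 and reached 3.28 in LINC00941. Among the 20 members of these 84 that were called at 2-fold, 14 had all probes on the same side of 0 and 8 had all probes past 2-fold. Another 11 members were not called although at least 1 probe passed 2-fold.

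**Figure D4:**
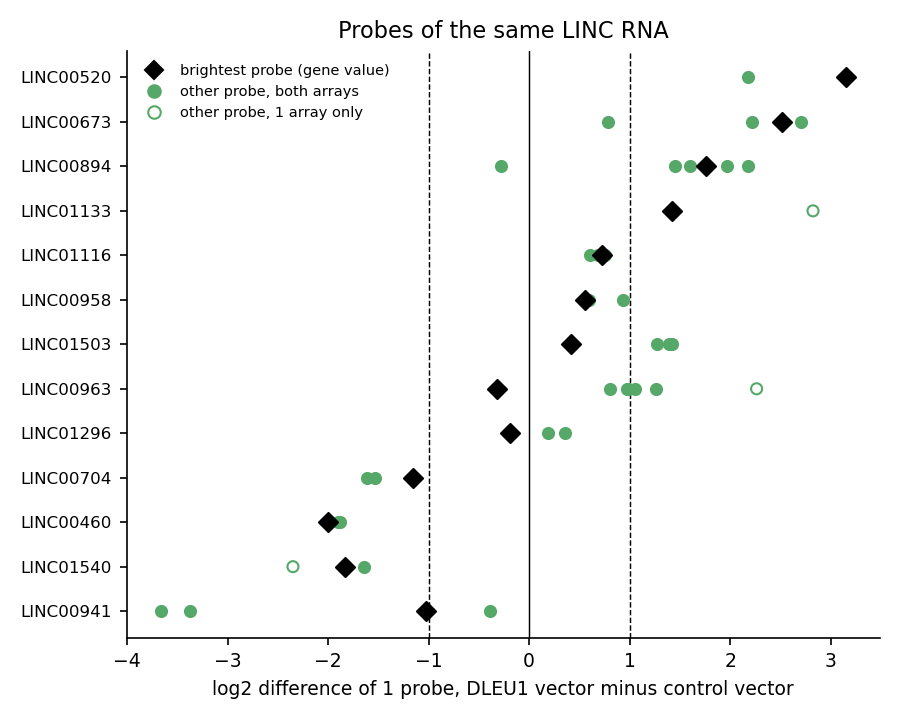
Difference of each detected probe (x axis, log2, DLEU1 vector minus control vector) for 13 members with several probes. Diamonds are the brightest probe, which gave the value of the gene, filled circles are other probes detected on both arrays and open circles are probes detected on 1 array only. The diamonds of LINC00963 (-0.32) and LINC01503 (0.42) lie apart from the other probes of the same RNA, while the probes of LINC00460 and LINC01116 nearly coincide.

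LINC00963 showed this most clearly. Its brightest probe read 3.003 and 2.68, a difference of -0.32, whereas the other 5 probes detected on both arrays gave 0.81 to 1.26 and a sixth, detected with the DLEU1 vector only, gave 2.26. With the mean over probes LINC00963 stood at 0.79. The 6 probes that stood higher are printed in the order of their position on the plus strand of chromosome 9 (hg19), from chr9:132251372-132251431 to chr9:132269075-132269134, because they are the probes of this locus that differ in direction from the brightest one.
LINC00963 probe at 0.81: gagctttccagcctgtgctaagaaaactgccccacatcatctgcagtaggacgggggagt
LINC00963 probe at 0.99: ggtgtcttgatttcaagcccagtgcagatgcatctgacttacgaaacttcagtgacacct
LINC00963 probe at 2.26: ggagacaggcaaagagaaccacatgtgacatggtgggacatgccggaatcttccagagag
LINC00963 probe at 0.98: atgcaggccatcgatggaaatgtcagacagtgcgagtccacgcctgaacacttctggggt
LINC00963 probe at 1.05: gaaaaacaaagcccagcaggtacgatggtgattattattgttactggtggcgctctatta
LINC00963 probe at 1.26: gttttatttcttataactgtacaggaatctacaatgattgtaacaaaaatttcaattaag

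LINC00941 was the member whose probes lay farthest apart. Its brightest probe read 2.18 and 1.16 (-1.02), while 2 other probes read 1.01 and -2.36 (-3.37) and 0.92 and -2.74 (-3.66). The fourth probe, farthest toward the 5′ end, gave -0.39. All 4 probes were lower with the DLEU1 vector, by amounts from less than 2-fold to more than 10-fold. The probes are printed in order along the plus strand of chromosome 12 (hg19), from chr12:30949077-30949136 to chr12:30955519-30955578, with capitals for bases in runs of 16 that also occur on a probe of at least 1 other gene name. The capitals at the start of the last and brightest probe are shared with 3 other gene names.
LINC00941 probe at -0.39: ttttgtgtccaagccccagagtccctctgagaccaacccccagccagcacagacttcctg
LINC00941 probe at -3.37: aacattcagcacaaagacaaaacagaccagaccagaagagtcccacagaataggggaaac
LINC00941 probe at -3.66: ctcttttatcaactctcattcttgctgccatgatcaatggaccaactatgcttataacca
LINC00941 probe at -1.02: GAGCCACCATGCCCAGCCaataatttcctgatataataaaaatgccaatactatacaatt

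LINC01503, an RNA described in squamous carcinoma, also had a brightest probe that lay apart from the others. That probe read 3.82 and 4.23 (0.42), and the other 3 gave 1.27, 1.39 and 1.42. In LINC00958 the probes were closer, at 0.55, 0.60 and 0.93. Of all 58201 probes, 9906 held a run of 16 bases found on a probe of another gene name, and of the 280 probes that gave the members' values, 48 did.

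LINC RNAs can be transcribed together with a neighbouring gene or from its enhancers, and the nearest coding gene was therefore examined. Of the 280 members detected on both arrays, 154 had a detected coding gene within 100 kb. The neighbour differed in the same direction for 81 (52.6%). These pairs are not independent, since some members share a neighbour. For genes outside the LINC set the share was 55.8%. Among the 25 members at least 2-fold higher with such a neighbour, the neighbour was at least 2-fold higher for 5 and at least 2-fold lower for 2. Among the 8 that were lower, it was lower for 2 and higher for 1 at that fold. Outside the LINC set it was higher for 215 and lower for 110 of 1304 higher genes. Of 1550 lower genes there, it was lower for 259 and higher for 99. The neighbour lay above 0 for 9 of the 25 and for 706 of the 1304. It lay below 0 for 6 of the 8 and for 986 of the 1550.

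The 5 members that were higher together with the neighbour were LINC00319 and LINC00313 (both SIK1), LINC00479 with RIPK4, LINC00260 with ATP2B4 and LINC00341 with SYNE3. LINC00479 differed by 1.66 and RIPK4, a kinase of keratinocyte differentiation, by 1.62. LINC00260 differed by 1.18 and ATP2B4, a calcium pump of the plasma membrane, by 1.32. LINC00341 (1.07) and SYNE3 (1.09) are now 1 gene in RefSeq, so this pair is not independent. The pairs that were lower together were LINC00471 (-1.06) with the nucleolin gene NCL (-1.16), and LINC00659 (-1.04) with MRGBP (-1.46). LINC00511, detected with the DLEU1 vector only, lay 47.6 kb from SLC39A11, a zinc transporter gene that also read higher, at 2.22 and 4.12 (1.90).

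Opposite directions were also seen. GAPLINC was lower while TGIF1, a transcriptional repressor 20.8 kb away, read 1.81 and 3.22 (1.41). LINC00853 was higher (1.64) while STIL, which acts in centriole duplication, read 2.35 and -0.13 (-2.48). LINC00624 was higher (1.06) while CHD1L, a chromatin remodeller, differed by -1.04. LINC01152 was lower (-1.75) while SOX9, a transcription factor gene 88.6 kb away, read -2.10 and -1.24 (0.86).

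**Figure D5:**
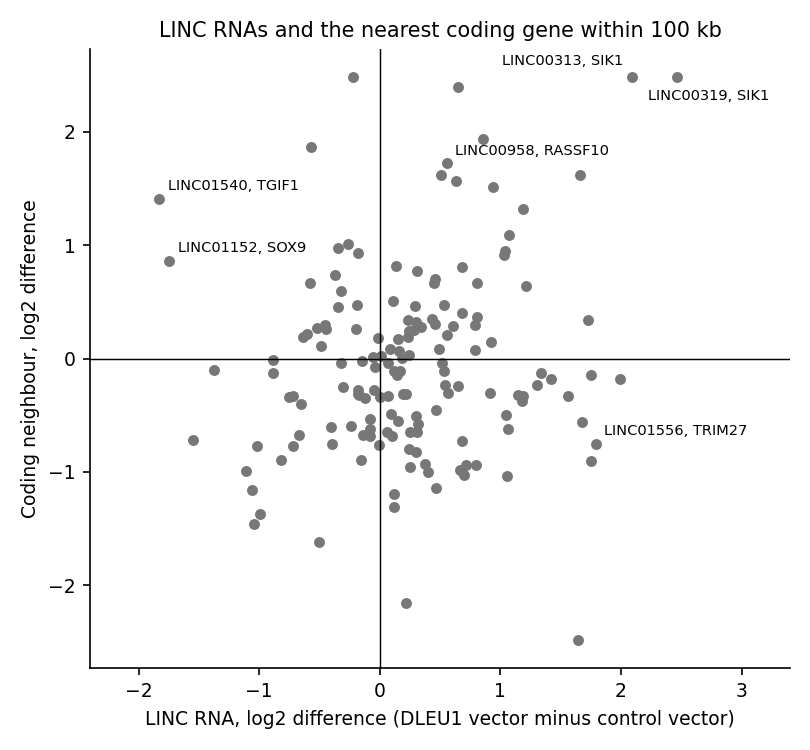
Difference of each LINC RNA (x axis) and of its nearest coding gene within 100 kb (y axis), both log2, DLEU1 vector minus control vector, for 154 members with both detected on both arrays. Points in the upper right and lower left quadrants (81 of 154) differ in the same direction. LINC00313 and LINC00319 share the neighbour SIK1, while LINC01540 with TGIF1 lies in the opposite quadrant.

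Members that lie close to each other were compared as pairs. Within 500 kb there were 36 pairs of members detected on both arrays, and 17 differed in the same direction. Many of these differences were below the SD between probes. Both members passed 2-fold in 3 pairs. LINC00313 with LINC00319 and LINC00408 (1.86) with LINC00417 (1.03) were higher together, whereas LINC00673 (2.52) and LINC01152 (-1.75), 366 kb apart beside SOX9, went opposite ways. By chromosome, the highest median among chromosomes with at least 10 members was that of chromosome 7, at 0.66 over 11 members, where all 995 genes of that chromosome had a median of -0.10 and 7.74% at least 2-fold higher. Of these 11, LINC01372 (1.42), LINC00174 (1.04) and LINC01176 (1.03) were at least 2-fold higher. On chromosome 10 the median was -0.21 over 15 members, with none at least 2-fold higher and LINC00704 at least 2-fold lower. All 825 genes there had a median of -0.09, with 8.97% at least 2-fold higher and 10.9% lower.

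Promoter sequence was examined for the members that RefSeq places. A window of 250 bases before to 50 after the start (GRCh38.p14, RefSeq) was found for 252 of the 342 members. Their median GC content was 55% and their median number of CpG dinucleotides was 8, where all 27305 promoters had 58.3% and 14. The AP-1 motif was searched as the letters TGANTCA on either strand, with any base in the middle. FOS and JUN family factors bind forms of these letters, so the search may take in sites that they do not bind. The motif as searched occurred in 11.5% of members' windows and in 7.76% of all windows. Among members at least 2-fold higher it was found in 1 of 27, and among those at least 2-fold lower in 3 of 13, where the members between gave 21 of 174.

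The 3 windows were those of LINC00460, CYTOR and MANCR, each with 2 matches. They are printed on the strand of the gene, with the matches in capitals, because these are 3 of the RNAs that were lower and the first 2 hold both matches close to the start. The windows are chr13:106376314-106376613 (plus strand), chr2:87455177-87455476 (plus strand) and chr10:4678021-4678320 (minus strand) in GRCh38.p14. The first MANCR match holds A in the middle, and the other matches hold C or G. A match describes letters only, and no binding was measured here.
LINC00460 promoter: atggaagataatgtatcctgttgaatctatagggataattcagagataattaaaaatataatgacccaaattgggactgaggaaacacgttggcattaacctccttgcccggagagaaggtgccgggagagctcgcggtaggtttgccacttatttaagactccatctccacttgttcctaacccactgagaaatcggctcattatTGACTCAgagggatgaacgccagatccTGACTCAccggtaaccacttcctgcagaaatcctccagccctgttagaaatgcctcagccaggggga
CYTOR (LINC00152) promoter: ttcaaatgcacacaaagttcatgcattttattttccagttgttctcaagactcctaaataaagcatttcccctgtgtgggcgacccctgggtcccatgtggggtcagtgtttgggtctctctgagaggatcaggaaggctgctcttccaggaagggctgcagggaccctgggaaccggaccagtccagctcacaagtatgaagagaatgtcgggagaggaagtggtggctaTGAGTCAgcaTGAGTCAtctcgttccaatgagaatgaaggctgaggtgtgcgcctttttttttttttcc
MANCR (LINC00704) promoter: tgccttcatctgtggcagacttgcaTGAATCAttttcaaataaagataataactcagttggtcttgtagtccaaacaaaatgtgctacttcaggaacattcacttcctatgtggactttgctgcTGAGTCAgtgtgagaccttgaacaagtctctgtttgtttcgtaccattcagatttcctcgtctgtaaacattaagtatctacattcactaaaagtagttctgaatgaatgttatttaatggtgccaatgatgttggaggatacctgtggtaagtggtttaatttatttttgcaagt

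The other motifs searched, on both strands, were the interferon-stimulated response element (ISRE), an E2F motif with letters TTCCCGC and a TATA box with letters TATAAA. The ISRE occurred in 2.78% of members' windows and in 3.65% of all windows. It was found in 1 of the 27 windows of members that were higher, that of LINC01556. The E2F motif occurred in 4.76% of members' and 6.56% of all windows, in none of the 27 higher and in 1 of the 13 lower members. The TATA box letters occurred in 11.5% and 12.0%, in 4 of the 27 higher members, LINC00548 among them, and in 1 of the 13 lower.

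Not every LINC name is still a noncoding RNA. In RefSeq 281 members kept the symbol, 59 were renamed and 2 (LINC00086 and LINC00087) could not be matched to 1 gene. Of the renamed, 15 are now antisense or divergent transcripts and 4 are microRNA host genes. The current type was long noncoding RNA for 322 members, protein-coding for 15 and transcribed pseudogene for 3. Of the 15 protein-coding, 14 were detected on both arrays with a median difference of 0.27. LINC00341 (SYNE3) and LINC01125 (1.34, now C2orf92) were at least 2-fold higher, with none at least 2-fold lower. Of all protein-coding genes, 9.06% were higher and 11.6% lower at that fold. Among the 15, MTLN, a small mitochondrial protein first listed as LINC00116, read 5.04 and 4.40 (-0.64). NBDY, a small protein of P-bodies first listed as LINC01420, read 4.43 and 4.97 (0.55). SMIM30, first listed as LINC00998, read 3.21 and 3.12 (-0.09).

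Many long noncoding RNAs of the nucleus are degraded by the nuclear exosome, a ribonuclease complex that works with adaptor and polyadenylation factors. Of 21 genes of this machinery on the array, 20 were detected on both arrays. Their median difference was -0.68, 18 of the 20 lay below 0, and 7 were at least 2-fold lower, with none higher. The same fold was passed downward by 11.6% of all protein-coding genes, whose median was -0.12. Over the other settings the median of the list lay between -0.50 and -1.14, with 5 to 11 genes at least 2-fold lower. The core subunits EXOSC8 (5.30 and 3.48, -1.82) and EXOSC9 (4.46 and 2.71, -1.74) and the poly(A) polymerase PAPD5 (-1.44 and -3.63, -2.19) were lowest. EXOSC3, EXOSC5, EXOSC6 and MPHOSPH6 differed by -1.06 to -1.16, the EXOSC6 probe lying in the strip that read low. ZFC3H1, of the adaptor that targets polyadenylated nuclear RNA, differed by 0.39, and the nuclease gene DIS3 was detected with the DLEU1 vector only. Whether these levels bear on the LINC RNAs was not tested.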

How the data were processed

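RNA from 1 Ca9-22 culture per vector was measured on Agilent SurePrint G3 Human GE v3 1-colour arrays. The deposited intensity values are the processed signal of Feature Extraction 10.7 (per the labels), in which the authors' software subtracted background and detrended each array. The authors' series values hold the same intensity. No scaling between arrays had been applied. The methods name GeneSpring for the authors' own analysis.

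Here the processed signal was taken to log2, control spots and spots marked as outliers were left out, replicated spots were averaged by probe, and each array was shifted by the 75th percentile of its non-control probes. A probe was detected where marked well above background. Each gene took the value of the brightest among its probes detected on both arrays, and the threshold was 2-fold. Probe positions are hg19 as deposited. Python 3.11.15, numpy 2.4.6, pandas 2.3.3, R 4.3.3 with limma 3.58.1 and matplotlib 3.10.9 were used, and the counting was tested on simulated data. The number of arrays, 1 per group, limits the precision of every value.

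Genes were named by rule: DLEU1, the 10 largest differences and the 5 largest bounds each way, the 5 brightest members, the members of the squamous list, the nearest coding genes within 100 kb of the first 20, the members next to the detection limit and the extreme genes of each list. Others were named after their values were seen. The members and lists were chosen with earlier results of these data known. Alternatives were other scalings, normexp (offset 50) on the mean and background signals, other filters, thresholds and probe summaries, leaving out the strip that read low (rows 1 to 127 and columns 32 to 47), and alternatives chosen after seeing the data, namely leaving out members now annotated as protein-coding, requiring every detected probe past 2-fold, the median over probes, leaving out probes of repeated letters and all settings for the squamous and exosome lists. Symbols and promoters came from RefSeq tables of GRCh38.p14. The sequence of 1 probe is not reported here.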

Additional observations from a re-analysis of the deposited data

How the results depend on the processing

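The 37 members at least 2-fold higher and 14 lower, with a median difference of 0.15, depended on the scaling and the background correction. Spike-in scaling gave 17 higher, 38 lower and a median of -0.31. It moved the median of all genes to -0.53, with 4.60% of all genes higher and 23.9% lower. Array median scaling gave a median of 0.037, and scaling to the detected probes gave 0.26 with 9 lower. Normexp gave 19 higher and 3 lower, where 5.54% and 6.98% of all genes passed. Among the 138 members with signals of 100 or more on each array there were 15 and 5, where 7.27% and 10.2% of all genes passed. Detection on at least 1 array gave 67 and 32, where 12.1% and 11.7% of all genes passed. Positive and significant signal gave 66 and 28, where 11.2% and 10.9% of all genes passed. Under the latter setting 1 member was found under the DLEU1 vector alone and 4 under the control vector alone. At 1.5-fold there were 71 and 36, and at 3-fold 16 and 5. The higher share of the calls was 72.5%, 64.4% with the array median, 83.6% when scaled to the detected probes, 30.9% with spike-in scaling and 86.4% with normexp. DLEU1 stood at 2.62 with the array median, 2.85 when scaled to the detected probes, 2.92 after quantile and 2.97 after loess normalization, 2.28 by spike-in scaling and 1.38 as the mean over its probes. Among named members, LINC00493 turned to -0.0093 with the array median. Under spike-in scaling LINC00346 (-0.16), LINC00493 (-0.35), LINC00504 (-0.11), LINC00668 (-0.31), LINC01122 (-0.13), LINC01356 (-0.12) and LINC01503 (-0.042) fell below 0. The mean over probes turned LINC00668 (-0.32), LINC00963 (0.79) and LINC01296 (0.12), and LINC00668 was -0.79 without the strip that read low. The cause was not tested beyond what each setting does by construction. Of the 22 named members called at 2-fold, 0 changed sign, but 10 fell under 2-fold with normexp: LINC00160 (-0.41), LINC00337 (-0.84), LINC00704 (-0.94), LINC00941 (-0.99), LINC01133 (0.52), LINC01152 (-0.92), LINC01197 (-0.78), LINC01461 (-0.46), LINC01482 (-0.97) and LINC01556 (0.81). LINC00941 also did so after quantile (-0.96), loess (-0.93) and detected-probe scaling (-0.91), LINC01461 after the last (-0.996) and LINC01133 after spike-in scaling (0.96). Leaving out probes of repeated letters could not change the counts, since neither such probe was called. Leaving out members now protein-coding gave 35 and 14, and requiring every probe past 2-fold gave 28 and 11. A called member with only 1 probe detected on both arrays passes that last rule by construction. Of the 20 called members with at least 2 such probes, 8 had all of them past 2-fold. No paired analysis was possible because each group has 1 array, and for the same reason no replicate could be left out in turn.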
